A study of Rattus norvegicus with 4 samples.

Results

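Ptprc, Cd68 and Cd74, 3 leukocyte marker genes, were followed through deep RNA sequencing of rat arteries as a sign of immune cells in each dissected sample. They are 3 of the 26313 Ensembl gene identifiers listed in each sample, and they were chosen by identifier: ENSRNOG00000000655 for Ptprc, ENSRNOG00000037563 for Cd68 and ENSRNOG00000018735 for Cd74. All 3 were above 0 in all 4 samples.

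The samples were the thoracic aorta (AO), a large conduit artery, and the mesenteric arterial arcade without the superior mesenteric artery (MA), which holds small resistance arteries. There were 2 samples of each, AO1 and AO2, MA1 and MA2, all from untreated adult male Sprague-Dawley rats 12 weeks of age. One rat gave AO1 as well as MA1, and AO2 and MA2 were taken from 1 further rat each, so the 4 samples stand for 3 rats and the spread within a tissue includes that between animals. The arcade was dissected and cleaned of fat before RNA was extracted. The aortas yielded 4.4 µg (AO1) and 2.1 µg (AO2) of RNA and the arcades 1.4 µg (MA1) and 2.2 µg (MA2). The labelled tissues were not checked against markers of muscle, endothelium or fat in the deposited values, since no table used here pairs the other identifiers with symbols. The paper prints some such genes by symbol for these samples, among them Myh11 and Nos3. It reports the fat markers resistin and Fabp4 as more abundant in AO, Fabp4 by about 3-fold and resistin by less. It held that fat did not appear to explain its mitochondrial mRNAs.

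Leukocytes reach the artery wall from the blood and also live there, most of them macrophages of the adventitia, the outer layer that borders the fat around the vessel. Ptprc encodes CD45, a receptor tyrosine phosphatase on the surface of nearly all nucleated blood-derived cells, which sets the threshold of lymphocyte receptor signaling. Cd68 encodes a heavily glycosylated membrane protein of late endosomes and lysosomes that is abundant in macrophages and is used as their marker. Cd74 encodes the invariant chain, which binds new MHC class II molecules, blocks their groove and guides them to the endosome, and is high in B cells, dendritic cells and activated macrophages. The 3 genes thus mark leukocytes in general, the macrophage lineage and antigen-presenting cells. Cells other than leukocytes can also express Cd74, as endothelium does under interferon.

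The gene length by which each RPKM, the reads per kilobase and library size, had been divided was solved from the values, and it matched the named gene. It was 111300 bp for Ptprc, 1879 bp for Cd68 and 9395 bp for Cd74. The RefSeq annotation of the assembly GRCr8 gives spans of 112094, 1880 and 9336 bp from end to end, introns included. The lengths differed from these spans by -0.71%, -0.053% and 0.63%. Of all RefSeq genes, 0.144%, 0.264% and 0.408% have a span within 1% of the solved length of Ptprc, Cd68 and Cd74. The RPKM of these genes are therefore per kilobase of gene and not of mRNA, which gives a gene with long introns such as Ptprc a small value. No RefSeq gene overlaps any of the 3, although Mpdu1 lies 25 bp from one end of Cd68 and Eif4a1 651 bp from the other. It was not tested whether reads of these neighbors were counted to Cd68.

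The bases before the start of Ptprc (GRCr8, chr13:52259811-52259996, minus strand) and of Cd68 (GRCr8, chr10:54882442-54882691, minus strand) are shown, as RefSeq gives them. They are those of the reference assembly, and no link to the levels in these samples was tested. Capitals mark GGAAGT, the core bound by ETS factors such as PU.1 of myeloid cells, and CCAAT, the CCAAT box. Each was searched on both strands. The search ran over the 250 bases before the start in the RefSeq table, and the 64 bases of this window that lie inside the RefSeq gene Ptprc, where another transcript starts earlier, are not shown.
Ptprc: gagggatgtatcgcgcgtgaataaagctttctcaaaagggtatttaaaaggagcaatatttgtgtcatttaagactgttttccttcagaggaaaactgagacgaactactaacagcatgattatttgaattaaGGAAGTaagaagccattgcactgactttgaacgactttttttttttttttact
Cd68: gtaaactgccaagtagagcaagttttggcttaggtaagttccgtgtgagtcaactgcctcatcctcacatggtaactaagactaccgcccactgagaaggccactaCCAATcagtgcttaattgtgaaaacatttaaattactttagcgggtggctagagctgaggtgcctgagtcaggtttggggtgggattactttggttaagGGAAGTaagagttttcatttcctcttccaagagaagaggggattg
GGAAGT was found 2 times in the window of Ptprc, once on each strand and the second time at the edge of the gene, 1 time before Cd68 and 0 times before Cd74, while 19.2% of 33469 RefSeq promoters of the same length hold it. CCAAT was found 1 time before Cd68 and 1 time before Cd74, beside 34.0% of all promoters. TAGCAAC, a core of the X box through which RFX factors act on MHC class II genes, was found 1 time before Cd74 and 0 times before the others, and 2.88% of promoters hold it. The window of Cd74 reaches 135 bases into the RefSeq gene, and the X box core lies in that stretch. A match is a run of letters, and binding was not measured.

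In the aortas, AO1 and AO2, RPKM of Ptprc was 0.0468 and 0.0526, and in MA1 and MA2 it was 0.209 and 0.0743. Behind these values were 470, 511, 1939 and 736 whole reads in the same order. Both MA samples were above both AO samples as deposited, and MA1 stood far above the rest. Reads on all genes together came to between 72524064 and 82449012 per sample. RPM is RPKM without the division by length, with the library size and not these reads as the divisor. In RPM, Ptprc was 5.20 in AO1 (95% exact interval 4.74 to 5.70) and 5.85 in AO2 (5.35 to 6.38). RPM was 23.3 in MA1 (22.2 to 24.3) but 8.27 in MA2 (7.69 to 8.89). These intervals cover counting error only, since reads are not independent molecules. Within a sample, Ptprc had more reads than 47.6% to 50.3% of the genes detected in AO1, AO2 and MA2, but than 70.4% in MA1.

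The samples were scaled by the median ratio over genes, since most mRNAs had higher RPKM in MA. Over the genes that reached 1 RPKM in 2 or more samples, the median log2 difference of MA minus AO was 0.37 as deposited and -0.05 after scaling. Scaled RPKM of Ptprc was 0.0593 in AO1 and 0.0586 in AO2, and 0.171 in MA1 and 0.0642 in MA2. After scaling MA2 was thus close to the aortas, at 1.08-fold of AO1 (counting interval 0.963 to 1.22) and 1.10-fold of AO2 (0.977 to 1.23), while MA1 was 2.89-fold of AO1 (2.61 to 3.20) and 2.92-fold of AO2 (2.65 to 3.23). The means were 0.0589 ± 0.00046 (SD, n = 2) in AO and 0.118 ± 0.0758 (SD, n = 2) in MA.

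For Cd68 the aortas had RPKM of 3.67 (AO1) and 5.10 (AO2) and the arcades 4.20 (MA1) and 1.57 (MA2), from 623, 837, 658 and 263 reads. As deposited the tissues overlapped, with MA1 between the aortas and MA2 below all others. Scaled RPKM was 4.65 in AO1 and 5.69 in AO2, and 3.44 in MA1 and 1.36 in MA2, so that both MA samples were below both AO samples. The means were 5.17 ± 0.731 (SD, n = 2) in AO and 2.40 ± 1.47 (SD, n = 2) in MA. In RPM, Cd68 was 6.90 in AO1 (95% exact interval 6.37 to 7.46) and 9.58 in AO2 (8.94 to 10.3). The RPM of MA1, 7.90 (7.31 to 8.53), lay between these, and that of MA2 was 2.96 (2.61 to 3.34).

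For Cd74 RPKM was 6.69 (AO1) and 7.74 (AO2) in the aortas, 17.2 in MA1 and 5.58 in MA2, from 5675, 6355, 13473 and 4663 reads. Scaled RPKM was 8.48 and 8.64 in the aortas, 14.1 in MA1 and 4.82 in MA2. The aortas were nearly equal and lay between the MA samples, MA1 above and MA2 below. This order, with MA1 highest and MA2 lowest of the 4 samples, was found for 7.34% of the 15688 genes to which each sample gave 10 reads or more. The means were 8.56 ± 0.112 (SD, n = 2) in AO and 9.46 ± 6.57 (SD, n = 2) in MA. Cd74 had more reads than 92.1% and 92.4% of the genes detected in AO1 and AO2, 96.4% in MA1 and 87.1% in MA2.

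In RPKM per kilobase of gene the order in every sample was Cd74, Cd68 and Ptprc. By reads, Ptprc was above Cd68 in MA1 and MA2 and below it in AO1 and AO2. The mRNA lengths that would place the genes on one scale were not used here.

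**Figure D1:**
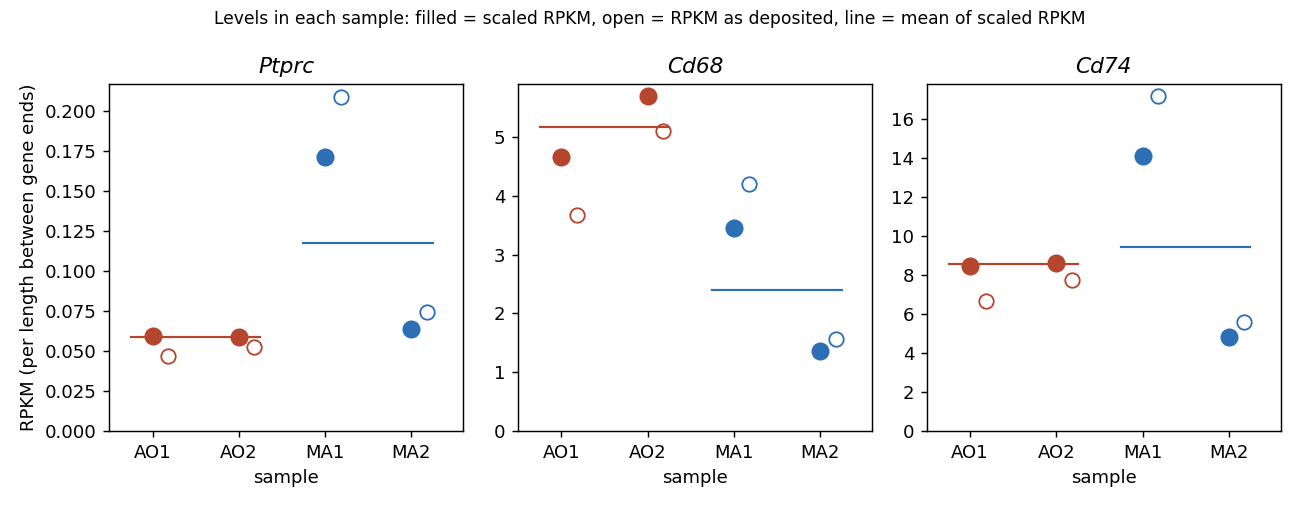
RPKM of Ptprc, Cd68 and Cd74 (y axes, from 0, with a scale for each gene) in the 4 samples (x axis), filled after scaling and open as deposited, with a line at the mean of the scaled values of each tissue. MA1 lies above MA2 for all 3 genes, and for Ptprc MA2 lies near the aortas after scaling, at 0.0642 against 0.0593 and 0.0586.

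The question whether the tissues differ was asked with limma across all genes, on log2(scaled RPKM + 0.5), with p values adjusted by Benjamini-Hochberg. The limits for a call were an adjusted p of 0.05 and a difference of more than 2-fold. Of 7203 genes tested 7.71% were called, 0.93% higher in MA and 6.77% higher in AO. Of the 3 leukocyte genes 2 passed the filter of 1 RPKM in 2 samples, Cd68 and Cd74, and 0 of these were called.

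The log2 difference of MA minus AO for Cd68 was -1.06 (SE 0.41, 95% interval -2.16 to 0.04, limma adjusted p = 0.208). On this scale MA was at 0.480-fold of AO. The size of the difference rested on MA2, as it was -1.60 without MA1 and -0.52 without MA2. Both MA samples were below both aortas after scaling, as for 26.7% of the 15688 genes to which each sample gave 10 reads or more. As deposited this was so for 11.3% of these genes and not for Cd68.

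The log2 difference for Cd74 was -0.04 (SE 0.52, 95% interval -1.44 to 1.36, limma adjusted p = 0.978), and the interval spans more than 2-fold either way. Its direction changed with the MA sample, with -0.77 without MA1 and 0.69 without MA2. It also changed with the scaling, to 0.43 for RPKM as deposited, 0.050 with upper-quartile scaling and 0.15 with quantile normalization.

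Ptprc did not reach the filter, nor the lower one of 0.1 RPKM in 2 samples, and on log2(scaled RPKM + 0.5) its small values are compressed to a difference of 0.14. With no filter 20747 genes were tested with limma, 0% of them were called, and Ptprc had an adjusted p of 0.601, while 3434 genes were at or under 0.05 before adjustment. Limma-voom on the whole reads, a fit added after the data were seen, called 2.13% of 18245 genes. There the log2 difference for Ptprc was 0.83 (SE 0.56, 95% interval -0.65 to 2.30, adjusted p = 0.507 from limma), that for Cd68 -1.26 (adjusted p = 0.260 from limma) and that for Cd74 -0.05 (adjusted p = 0.970 from limma). Both MA samples were above both aortas for Ptprc, as for 26.2% of genes after scaling and 59.6% as deposited. After scaling MA2 differed from the aortas by less than the counting error, so the size of the difference rests on MA1. As deposited MA2 was 1.59-fold of AO1 (counting interval 1.41 to 1.79) and 1.41-fold of AO2 (1.26 to 1.59). With 2 samples a side, 0.333 is the smallest two-sided p of an exact permutation test, and no single value was tested in this way.

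**Figure D2:**
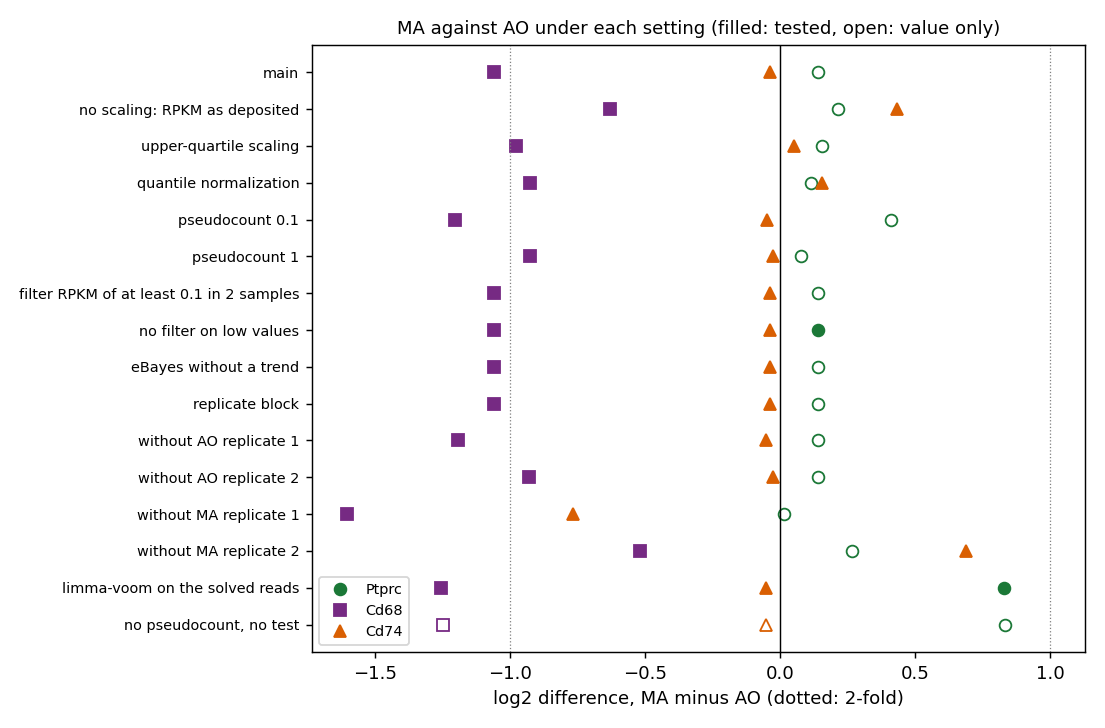
Log2 difference of MA minus AO (x axis, dotted lines at 2-fold) for the 3 genes under each processing setting (rows), filled where the gene was tested and open where only the value is given. Cd68 is below 0 in every row, from -1.60 to -0.52, Cd74 changes side, and Ptprc is above 0 in every row but ranges from 0.01 without MA replicate 1 to 0.83.

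A second comparison was that of MA1 with MA2. All 3 genes were higher in MA1, by 2.67-fold for Ptprc (counting interval 2.45 to 2.91), 2.54-fold for Cd68 (2.19 to 2.94) and 2.93-fold for Cd74 (2.83 to 3.03) in scaled RPKM. Of the 15688 genes to which each sample gave 10 reads or more, 6.62% were more than 2-fold higher in MA1 than in MA2, while this was so for 3 of the 3 leukocyte genes. On the log2 scale the ratios were 1.42, 1.34 and 1.55, above those of 96.9%, 96.4% and 97.6% of these genes, whose ratios had an SD of 0.78. With 1 sample on each side there is no test, and the 3 ratios share the same pair of libraries. After scaling, MA1 was above both aortas for Ptprc and Cd74 and below both for Cd68. A higher level in MA1 than in MA2 was not particular to leukocyte genes. In values the paper prints, Nos3, Adrb3 and Pparg were also higher in MA1 than in MA2. Most genes it prints, among them Myh11, Mylk and Actg2, were lower in MA1. The paper reports more variability between its MA samples than between its aortas, likely from dissection and small samples. The part of cell composition was not tested.

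Between AO1 and AO2 the differences were smaller for all 3 genes. The ratio of AO1 to AO2 in scaled RPKM was 1.01 for Ptprc (counting interval 0.890 to 1.15), 0.818 for Cd68 (0.736 to 0.909) and 0.982 for Cd74 (0.947 to 1.02). Only the interval for Cd68 left out 1. Of the 15688 genes, 3.36% differed less between the aortas than Ptprc and 5.55% less than Cd74, but 52.0% less than Cd68, which was thus near the middle. MA1 was the sample with the lowest RNA yield, 1.4 µg against 2.2 µg for MA2, and it came from the rat that gave AO1, in which the 3 genes were not raised over AO2. The part of the dissection, the yield or the animal in the difference was not tested. In bulk RNA, fewer leukocytes and less of these mRNAs per leukocyte cannot be told apart.

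**Figure D3:**
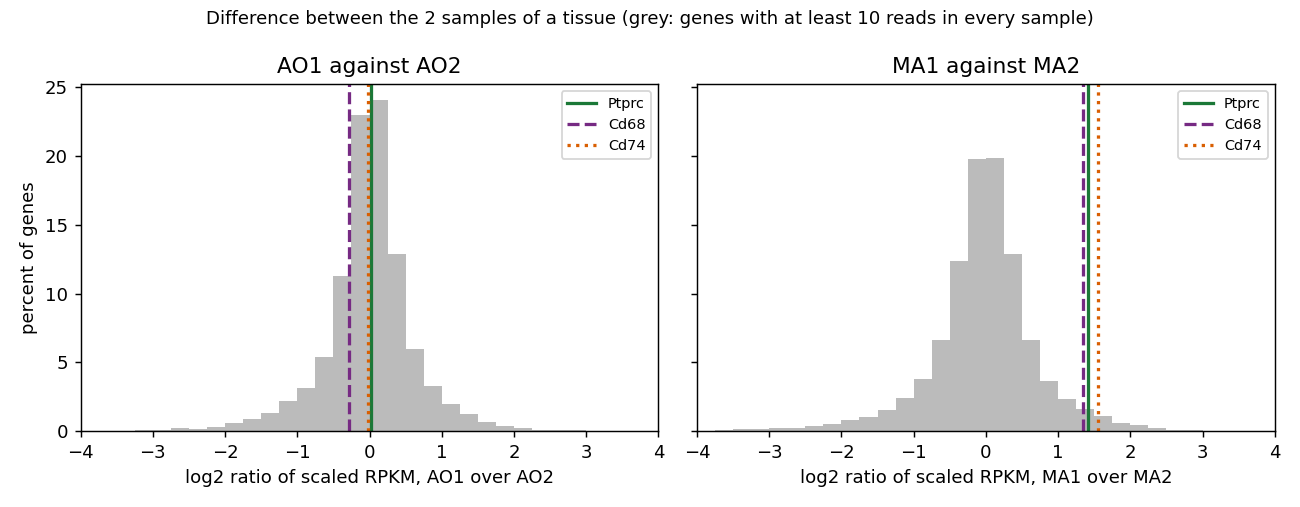
Log2 ratio of scaled RPKM between the samples of a tissue (x axes) for genes to which each sample gave 10 reads or more, as percent of genes (y axis, gray bars), with lines for Ptprc, Cd68 and Cd74. In MA the lines stand at 1.34 to 1.55, in the upper tail, and in AO they stand at -0.29 to 0.02.

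The proportions of reads of the 3 genes within a sample depend neither on the scaling nor on the gene length when samples are compared, and they separated the tissues. Whether reads in introns were counted is not given in the sources used here, so these need not be proportions of mRNA. For each read of Ptprc there were 1.33 reads of Cd68 in AO1 (95% exact interval 1.17 to 1.50) and 1.64 in AO2 (1.47 to 1.83), but 0.339 in MA1 (0.310 to 0.371) and 0.357 in MA2 (0.309 to 0.412). The MA samples differed by 1.05-fold and the aortas by 1.24-fold, while the tissues were 4.23-fold apart. Cd68 was thus low relative to Ptprc in MA1 and MA2 alike, although the level of each gene was more than 2-fold apart between them.

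For each read of Ptprc there were 12.1 reads of Cd74 in AO1 and 12.4 in AO2, while MA1 had 6.95 and MA2 6.34, so the ratio was 1.85-fold higher in AO. For each read of Cd68 there were 9.11 reads of Cd74 in AO1 and 7.59 in AO2, while MA1 had 20.5 and MA2 17.7, 2.29-fold higher in MA. None of the 3 ratios overlapped between the tissues.

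Many other genes behaved in the same way toward these genes. Per read of Ptprc, both MA samples were below both aortas for 47.5% of 15687 genes, and per read of Cd68 both MA samples were above for 72.5%. The absence of overlap alone therefore does not set the leukocyte genes apart. By the log2 difference of MA minus AO per read of Ptprc, 7.45% of genes were lower than Cd68 and 43.0% lower than Cd74. Division by Ptprc shifts every gene by the same amount on this scale. These are therefore the ranks of Cd68 and Cd74 by themselves and do not bear on Ptprc. Per read of Ptprc, 0.835% of genes were closer than Cd68 and 1.62% closer than Cd74 between MA1 and MA2. A gene is close here only if its own ratio of MA1 to MA2 is near that of Ptprc. These shares therefore restate the comparison of MA1 with MA2 and add no further support. The ratios within a sample were noticed in the data and were not tested.

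**Figure D4:**
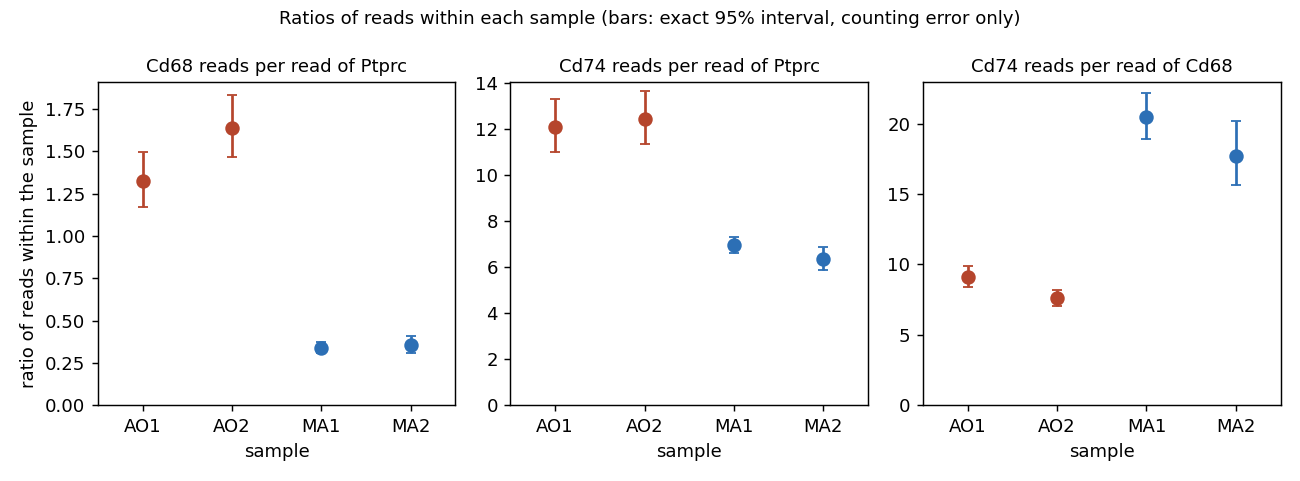
Reads of one gene per read of another within each sample (y axes, from 0), for Cd68 per Ptprc, Cd74 per Ptprc and Cd74 per Cd68, with exact 95% intervals of counting error. The samples of a tissue lie close together, and for Cd68 per Ptprc the aortas are at 1.33 and 1.64 and the MA samples at 0.339 and 0.357.

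The likeness of patterns over the 4 samples was measured as the Euclidean distance between centered log2 values, a description over 4 samples. With no pseudocount, over genes to which each sample gave 10 reads or more, Cd74 stood at rank 830 of 15687 in nearness to Ptprc, with 5.28% of genes nearer, and Cd68 at rank 13042, with 83.1% nearer. Seen from Cd68, Cd74 stood at rank 2366, with 15.1% nearer. From Cd74, Ptprc stood at rank 1868, with 11.9% nearer, and Cd68 at rank 6788, with 43.3% nearer. Ptprc and Cd74 were thus more alike over the 4 samples than either was to Cd68, at distances of 0.891 against 2.09 and 1.22. This version was added after the data were seen. On log2(scaled RPKM + 0.5), the planned measure, which compresses Ptprc, Cd74 was not among the genes nearer to Ptprc. Seen from Ptprc it stood at rank 5182 of 7203, with 71.9% of genes nearer, and Cd68 at rank 6233, with 86.5% nearer. Seen from Cd68, Cd74 stood at rank 1544 of 7202, with 21.4% nearer. From Cd74, 11.8% of genes were nearer than Ptprc and 35.3% nearer than Cd68.

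On log2(scaled RPKM + 0.5) among the genes tested, the nearest gene to Cd74 was ENSRNOG00000000394, with RPKM of 2.29 and 2.94 in the aortas, 6.66 in MA1 and 1.91 in MA2. The nearest to Cd68 was ENSRNOG00000015763, at 1.13, 1.46, 1.06 and 0.156 RPKM in the same order. The nearest to Ptprc, whose differences are compressed on this scale, was ENSRNOG00000021762, at 1.69, 1.92, 3.23 and 2.57 RPKM. No symbol is given for these identifiers here.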

How the data were processed

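RNA was sequenced from 2 samples of rat aorta (AO) and 2 of mesenteric artery (MA). Per the paper's methods the authors prepared TruSeq libraries, used TopHat to align paired-end reads to Rnor5.72, left out those placed at more than 2 sites, and divided the count of each gene by library size and, as the methods put it, mRNA length, although the lengths solved here fit the gene span. Versions and the strand setting of the counting are not given in the sources used here. The values the authors deposited are RPKM with 7 decimals for 26313 Ensembl identifiers. The symbols of the 3 genes come with their identifiers, and the RefSeq table holds 0 Ensembl identifiers for its 47357 genes, so marker and antigen presentation lists set by symbol were not analysed. The genes, lists and tests were chosen with earlier results of these data known.

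Whole reads, gene lengths and library sizes were worked out from the steps of RPKM (Python 3.11.15, numpy 2.4.6, numba 0.67.0). All 20747 genes above 0 came out whole, the farthest 0.0046 of a read away, with the length free to fit. Library sizes were 90305293 and 87358376 reads for the aortas (AO1, AO2), 83311442 for MA1 and 88953462 for MA2. For each of the 3 genes the smallest length that gave whole reads was taken. In a check over part of the range searched, no other length gave whole reads unless it was a multiple of this one. That part ended before the first multiple for Ptprc.

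Scaling used median-of-ratios factors (0.789, 0.897, 1.22 and 1.16 for AO1, AO2, MA1 and MA2). Genes that reached 1 RPKM in 2 or more samples were fitted by limma 3.58.1 in R 4.3.3 on log2(scaled RPKM + 0.5), with a trend and without a block, in place of the authors' DESeq test on counts, with their limits of an FDR of 0.05 and 2-fold. The authors also filtered on normalized reads, on the direction against each MA sample and on the ratio of MA1 to MA2, and these filters were not applied here. A fold change on the log2 scale used understates that of genes with low RPKM. Intervals of reads and ratios are exact (Poisson or binomial, scipy 1.17.1) at 95%. The solver and the fits were tested on simulated data with seed 1. Ptprc failed the planned fit with a filter of 0.1 RPKM too and was taken from the fit with no filter and from limma-voom. The 3 genes were named by identifier and the most similar gene of each by distance. Alternatives were the scaling, pseudocount (0.1, 1), filter, trend, replicate block and leaving out each sample. Limma-voom on the solved reads and values with no pseudocount were added after the data were seen.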

Additional observations from a re-analysis of the deposited data

How the results depend on the processing

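Cd68 and Cd74 were tested in 15 fits and called in 0 of them. Ptprc was tested in 2, with no filter and by limma-voom, and called in 0. With limma, 0 genes in all were called with no filter, where 3434 were at or under 0.05 before adjustment, and 0 without MA2, where 1460 were. Cd68 was lower in MA in each of the 15 fits. Cd74 turned from -0.04 to 0.43 as deposited, 0.050 with upper-quartile scaling and 0.15 with quantile normalization, and ranged from -0.77 to 0.69 with 1 sample left out. Ptprc moved from 0.14 to 0.41 with a pseudocount of 0.1, 0.83 by limma-voom and 0.83 with no pseudocount. The log2 difference of MA1 minus MA2 with a pseudocount of 0.5 was 0.25 for Ptprc, 1.09 for Cd68 and 1.46 for Cd74. It moved for Ptprc to 0.72 with a pseudocount of 0.1 and 1.42 with none, for Cd68 to 1.34 with none, and for Cd74 to 1.54 as deposited, 1.52 with quantile normalization, 1.53 and 1.38 with pseudocounts of 0.1 and 1, and 1.55 with none. The number of genes called, 555, became 368 with a filter of 0.1 RPKM, 0 with no filter, 389 by limma-voom, and 0 to 216 with 1 sample left out, where the lone sample was assumed to vary like the others. With the replicate block it was 563, and the difference for Cd68 stayed at -1.06 (limma adjusted p = 0.209) and that for Cd74 at -0.04. Same-numbered samples share a number only, apart from AO1 and MA1 of the same rat, and AO1 minus AO2 correlated with MA1 minus MA2 at 0.018 over genes. The causes of these changes were not tested. The fewest reads behind a value were 263, for Cd68 in MA2, which a 95% exact interval puts at 232 to 297.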
